A study of Mus musculus with 45 samples.

Results

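Genes encoding subunits of the nicotinic acetylcholine receptor were followed in the cortex, hippocampus and striatum of Shank3-mutant mice. They were 10 genes given as a list, namely Chrna2, Chrna3, Chrna4, Chrna5, Chrna6, Chrna7, Chrnb1, Chrnb2, Chrnb3 and Chrnb4. Of these, 9 were found by their Ensembl identifiers among the 18135 genes of the table, and Chrna6 was not analysed here. Chrnb4 was chosen by its measured values, because its striatal level rises with the number of mutant Shank3 alleles. Its striatal values are therefore given as a description without a test, and the tests below concern the other members and the other regions.

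Nicotinic acetylcholine receptors are ion channels built from a ring of subunits, and they let cations into the cell when acetylcholine or nicotine binds. In the brain, the subunits encoded by Chrna4 and Chrnb2 form the most widespread heteromeric receptor, and the subunit of Chrna7 forms homomeric receptors that pass calcium well. Subunits of Chrna3 and Chrnb4 join in the receptor of autonomic ganglia and of the medial habenula, where the accessory subunit of Chrna5 can be added. Chrnb3 and Chrna6 encode subunits found mainly in midbrain dopaminergic neurons, Chrna2 marks small sets of interneurons, and Chrnb1 belongs to the receptor of muscle. The striatum receives its acetylcholine mainly from local cholinergic interneurons.

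The data were mRNA-seq values of male C57BL/6J mice aged 13 weeks, per the labels. There were 3 genotypes, WT, Shank3-HT with 1 mutant allele and Shank3-HM with 2 mutant alleles, where the mutation removed exons 14 to 16 of Shank3 in the germline and hence in all cells of the body. The labels call the Shank3-HM mice knock-out mice, and the cortex samples are of the prefrontal cortex. Each genotype was represented by 5 samples in each of the 3 regions, giving 45 libraries in 9 groups. The study describes the samples of a group as separate mice, and whether the regions came from the same mice is not stated. Values are normalized counts, which are comparable between libraries but whose sequencing depth is unknown.

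The log2 difference of Shank3 between Shank3-HT and WT was -0.38 in the cortex, which was not called (adjusted p = 0.288), -0.43 in the hippocampus (adjusted p = 0.000219) and -0.50 in the striatum (adjusted p = 0.0494). Between Shank3-HM and WT, where it was called in each region, it was -0.98 (cortex), -1.06 (hippocampus) and -1.11 (striatum). Markers set the tissues apart as labelled, with summed spiny projection neuron markers of 244147 to 330123 in the WT striatum against 14866 to 16295 in the WT cortex, but a few libraries stood apart. Cortex Shank3-HM replicate 2 held 4.69 times the cortical median of the summed striatal spiny projection neuron markers and 9.94 times that of the cholinergic neuron markers. Markers of the choroid plexus, the epithelium in the ventricles, reached 113 times the striatal median in striatum Shank3-HT replicate 5 and 3.88 times the hippocampal median in hippocampus WT replicate 4. The hippocampal sums varied widely among all libraries, from 1316 to 123799 around a median of 31920. In the cortex, these markers were sparse, and reached 9.85 times the median in Shank3-HT replicate 3 and 6.29 times in Shank3-HM replicate 2. Where a log2 difference of a member from WT given here turned its sign or moved by over 1.5 times without one of these libraries, the value without it is given. In tissue samples, fewer cells of a type and less RNA per cell cannot be told apart.

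Chrna5, Chrna3 and Chrnb4 lie side by side on chromosome 9 (GRCm38) in a cluster of 67900 nucleotides. Chrna5 covers chr9:54980880-55007779 on the plus strand, Chrna3 covers chr9:55010111-55026562 on the minus strand, and Chrnb4 covers chr9:55028154-55048779 on the minus strand with 6 exons in a transcript of 3723 nucleotides. The gap between Chrna3 and Chrnb4 measures 1591 nucleotides and that between Chrna5 and Chrna3 2331 nucleotides. An antisense gene, Gm47877, overlaps Chrnb4 over 8647 nucleotides on the opposite strand and has no row in the table. The 250 bases before the start of Chrna3 (chr9:55026563-55026812, minus strand) and of Chrna5 (chr9:54980630-54980879, plus strand) are shown because these genes neighbour Chrnb4 in the cluster. They are RefSeq sequences of build GRCm38.p6, and capitals mark a GC box, the binding motif of Sp-family factors (GGGCGG, or CCGCCC on the other strand).
Chrna3: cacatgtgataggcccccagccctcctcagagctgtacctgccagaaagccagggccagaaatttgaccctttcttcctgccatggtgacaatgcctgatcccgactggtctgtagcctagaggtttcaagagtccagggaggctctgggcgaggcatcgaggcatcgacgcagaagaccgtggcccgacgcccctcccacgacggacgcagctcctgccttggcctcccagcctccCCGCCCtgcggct
Chrna5: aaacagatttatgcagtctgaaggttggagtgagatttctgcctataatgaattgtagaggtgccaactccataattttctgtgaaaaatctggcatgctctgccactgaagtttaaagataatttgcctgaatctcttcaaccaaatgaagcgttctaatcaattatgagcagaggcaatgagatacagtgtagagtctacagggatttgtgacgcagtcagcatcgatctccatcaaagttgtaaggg
The sequence before Chrna3 held 63.2% G and C bases and 13 CpG sites, and that before the Chrna5 start used here held 40.0% and 3 CpG sites. RefSeq gives a second Chrna5 start, whose window of 300 bases (chr9:54981238-54981537) held 65.0% G and C bases, 25 CpG sites, 4 GC boxes and 2 CACCC boxes. For Chrnb4, GENCODE places the start 235 bases upstream of the RefSeq start, so that the RefSeq window lies largely in the first GENCODE exon and is not printed. A set of 6 motifs was searched on both strands in windows from 250 bases before to 50 bases after each RefSeq start, namely the GC box, the CACCC box (CACCC), the TATA box (TATAAA), the CCAAT box (CCAAT), the cyclic AMP response element (TGACGTCA) and its shorter form, which it contains (TGACG). The window of Chrnb4 held 5 CACCC boxes and none of the other motifs, that of Chrna3 held 1 GC box and no other motif, and that of Chrna5 shown here held 1 TGACG. Of all 32851 promoter windows, 57.5% held a CACCC box, 35.7% a GC box and 20.8% a TGACG.

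In WT mice, the receptor subunits fell into an abundant and a sparse set. Per kilobase of transcript, the striatal level of Chrnb2 was 210 ± 12.4 normalized counts (SD, n = 5), that of Chrna7 was 130 ± 10.2 and that of Chrna4 was 93.6 ± 14.2. These 3 genes led in each region, in the order Chrnb2, Chrna4 and Chrna7 in the cortex and Chrnb2, Chrna7 and Chrna4 in the hippocampus. In the WT striatum, Chrna3 reached 3.76 ± 1.23 and Chrnb4 3.14 ± 0.976 normalized counts per kilobase, which differ by less than their spread. Of the sum of the 9 genes per kilobase in the WT striatum, Chrnb2 made up 46.0%, Chrna7 28.5%, Chrna4 20.5% and Chrnb4 0.689%.

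**Figure D1:**
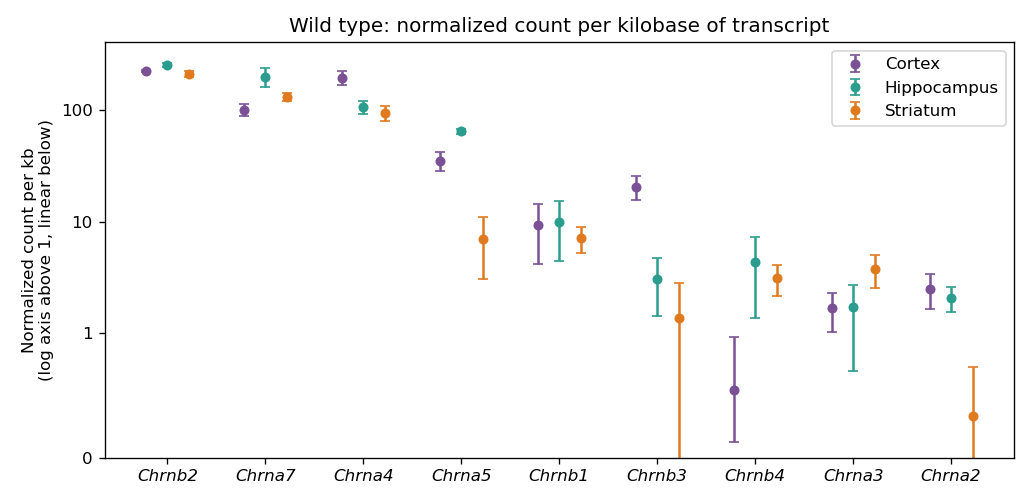
Levels of the 9 subunit genes in WT mice, in normalized counts per kilobase of transcript (vertical axis, logarithmic above 1 and linear below). Points are means and bars SD of 5 samples for cortex, hippocampus and striatum. Chrnb2, Chrna7 and Chrna4 lie highest in all regions, and Chrna5 and Chrnb3 differ most between regions among the genes with levels above 10 in one of them.

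Levels of several subunits differed between regions in WT mice, as did those of many genes: between striatum and cortex 59.3% of all genes were called, between hippocampus and cortex 46.6% and between striatum and hippocampus 56.1%. Chrna5 was lowest in the striatum, with 13.2 ± 7.46 normalized counts against 65.9 ± 12.9 in the cortex and 121 ± 6.24 in the hippocampus, and the log2 difference between striatum and hippocampus was -3.26 (SE 0.37, adjusted p = 3.17e-10). Its difference between hippocampus and cortex was 0.88 (SE 0.37, adjusted p = 0.0449), a call that was lost in 12 of the alternatives tried at differences of 0.82 to 0.92. Chrnb3 was highest in the cortex, at 94.1 ± 22.5, and stood at 14.2 ± 7.67 in the hippocampus and 6.24 ± 6.64 in the striatum, where 3 of the 15 libraries were at 0. The log2 difference of Chrnb3 between hippocampus and cortex was -2.77 (SE 0.58, adjusted p = 9.52e-05).

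Chrna4, a partner of Chrnb2, was highest in the cortex as well, at 886 ± 128 against 427 ± 64.8 in the striatum and 484 ± 65.3 in the hippocampus. The hippocampal and striatal levels of Chrna4 did not differ past the threshold (log2 difference -0.18, adjusted p = 0.246), while both were below the cortical level (-0.87, adjusted p = 4.97e-07, and -1.05, adjusted p = 4.64e-09). Chrna7 followed another order, with 411 ± 77.0 in the hippocampus, 270 ± 21.2 in the striatum and 208 ± 25.9 in the cortex, and each step passed the test. Chrnb2 varied least, between 1341 ± 79.1 in the striatum and 1593 ± 66.1 in the hippocampus, which still differed (log2 difference -0.25, adjusted p = 5.17e-06). Chrnb1 did not differ past the threshold between any 2 regions, with 20.04 ± 10.98, 21.4 ± 11.7 and 15.3 ± 4.01 in cortex, hippocampus and striatum.

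Chrna3 stood at 16.4 ± 5.36 in the WT striatum, 7.28 ± 2.81 in the WT cortex and 7.44 ± 4.43 in the WT hippocampus. Neither Chrna3 nor Chrnb4 was tested between regions, since Chrna3 reached a mean of 10 over 15 samples only in the striatum, where it was 22.6, and Chrnb4 fell short of it in the cortex. The WT levels of Chrnb4 were 2.04 ± 1.57 (cortex, with 1 sample at 0), 16.1 ± 10.95 (hippocampus) and 11.7 ± 3.63 (striatum). The hippocampal and striatal samples overlapped, and the hippocampal mean includes 33.7 in WT replicate 4, the library with raised choroid plexus markers. Chrna2 stood at 8.89 ± 3.09, 7.40 ± 1.84 and 1.19 ± 1.42 in cortex, hippocampus and striatum and was not tested between regions because its mean over all samples was under 10.

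In the striatum, the mean of Chrnb4 was higher with each mutant allele, the pattern for which the gene was chosen. The WT samples had 8.16, 17.3, 9.54, 13.2 and 10.2 normalized counts, with a mean of 11.7 ± 3.63 (SD, n = 5). The Shank3-HT samples had 38.5, 17.8, 13.3, 21.8 and 40.7, with a mean of 26.4 ± 12.4. The Shank3-HM samples had 49.4, 47.3, 43.3, 44.5 and 28.6, with a mean of 42.6 ± 8.20. All Shank3-HM samples were above all WT samples, whereas the Shank3-HT samples spread from within the WT range to within the Shank3-HM range. The ratio of means to WT was 2.26 in Shank3-HT and 3.65 in Shank3-HM, and the log2 differences were 1.03 (SE 0.30) and 1.80 (SE 0.30). Per mutant allele, the log2 slope was 0.90 (SE 0.15).

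**Figure D2:**
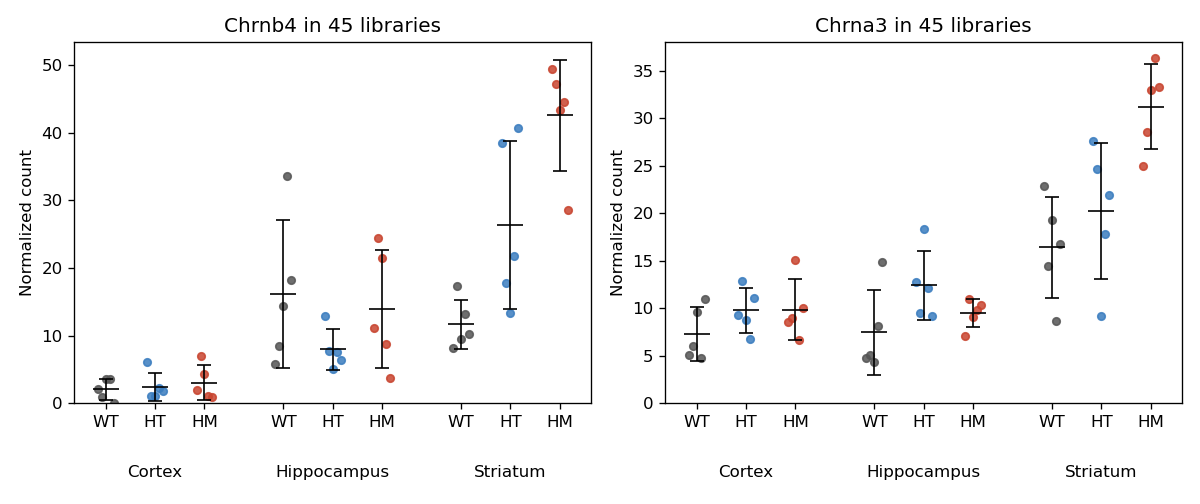
Normalized counts (vertical axis) of Chrnb4 (left) and Chrna3 (right) in the 45 libraries, by region and genotype. Each point is a sample, and the black marks are the mean and SD of 5 samples. In the striatum, the 5 Shank3-HM samples lie above the 5 WT samples for both genes, while Chrnb4 in hippocampus and cortex overlaps between all genotypes.

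The highest striatal Shank3-HT sample, replicate 5 with 40.7, was the library with the raised choroid plexus markers. Without it, the log2 difference of Shank3-HT from WT was 0.85 (SE 0.30), and that of Shank3-HM from Shank3-HT was 0.95 instead of 0.77. The other high Shank3-HT sample, replicate 1 with 38.5, had a choroid plexus sum of 464, the lowest of the striatum. On the scale per kilobase, the share of Chrnb4 in the sum of the 9 subunit genes was 0.689% ± 0.216 in the WT striatum, against 1.5% ± 0.685 with 1 mutant allele and 2.38% ± 0.462 with 2.

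In the hippocampus, Chrnb4 did not follow this order. The WT samples had 5.85, 8.42, 14.3, 33.7 and 18.2 normalized counts, the Shank3-HT samples 13.0, 7.73, 5.06, 7.56 and 6.41, and the Shank3-HM samples 11.2, 24.5, 21.4, 8.71 and 3.76. The genotypes overlapped, with Shank3-HT samples in the lower part of the range. The log2 difference was -0.76 (SE 0.48, adjusted p = 0.926) for Shank3-HT and -0.21 (SE 0.48, adjusted p = 0.968) for Shank3-HM. The highest sample, WT replicate 4, was also the hippocampal library with the highest choroid plexus sum of 123799, and the 3 highest WT samples had sums of 35466 to 123799 where the other WT samples had 3162 and 6870. Among Shank3-HT samples, those with sums of 33904 and 31920 had Chrnb4 counts of 7.73 and 6.41. Those with sums of 1853, 1316 and 2083 had counts of 13.0, 5.06 and 7.56, so that the highest count stood beside a low sum. Among Shank3-HM samples, sums of 43958, 60985 and 43665 stood beside Chrnb4 counts of 24.5, 21.4 and 11.2, and sums of 18546 and 6197 beside 8.71 and 3.76. Without WT replicate 4, the difference of Shank3-HT was -0.45 (adjusted p = 0.870) and that of Shank3-HM was 0.10 (adjusted p = 0.960). The part of choroid plexus tissue in these values was not tested.

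In the cortex, Chrnb4 was close to the lower end of the table, with a mean of 2.51 over 15 samples, which is below the minimum of 10 set for the test across genes. The means were 2.04 ± 1.57, 2.45 ± 2.07 and 3.05 ± 2.61 in WT, Shank3-HT and Shank3-HM, and 1 WT sample was at 0. The highest cortical Chrnb4 value, 7.02, was that of Shank3-HM replicate 2, the library with striatal markers. Two-sided exact permutation tests of 5 against 5 samples gave p = 0.675 for Shank3-HT and p = 0.492 for Shank3-HM, where the smallest possible p is 0.00794.

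Chrna3, which encodes the subunit that pairs with that of Chrnb4, was the member with the smallest unadjusted p in the striatum. Its WT samples had 22.9, 14.4, 19.3, 8.63 and 16.7 normalized counts, its Shank3-HT samples 27.6, 24.6, 9.17, 17.8 and 21.9, and its Shank3-HM samples 25.0, 28.5, 33.0, 36.3 and 33.2. All Shank3-HM samples were above all WT samples, and the Shank3-HT samples overlapped with both. The log2 difference of Shank3-HM from WT was 0.94 (SE 0.29, unadjusted p = 0.00466), with a ratio of means of 1.90, and it did not pass the adjusted threshold (adjusted p = 0.360). The difference of Shank3-HT was 0.27 (adjusted p = 0.889), and the slope per mutant allele was 0.47 (adjusted p = 0.357).

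Outside the striatum, Chrna3 was under the minimum, with means over 15 samples of 8.97 in the cortex and 9.78 in the hippocampus. Its hippocampal levels were 7.44 ± 4.43, 12.4 ± 3.67 and 9.48 ± 1.51 in WT, Shank3-HT and Shank3-HM, and the exact permutation test of Shank3-HT against WT gave p = 0.0794, the lowest of the 18 exact tests run on members under the minimum.

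Chrna5, the third gene of the cluster, had no such pattern in the striatum. The WT samples had 7.70, 8.61, 22.8, 7.13 and 19.8 normalized counts, and the Shank3-HM samples had 37.4, 11.3, 12.1, 7.45 and 23.3. The ranges overlapped, and the 2 highest Shank3-HM samples were above every WT sample. The log2 difference of Shank3-HM was 0.39 (SE 0.53, adjusted p = 0.937), and 2 SE to each side span -0.68 to 1.45, so that a change as large as that of Chrna3 was within the error. In the cortex and hippocampus, where Chrna5 is more abundant, the differences of both mutants from WT were between -0.10 and 0.17 with adjusted p of 0.953 to 1.0. Without cortex Shank3-HM replicate 2, the cortical Chrna5 difference of Shank3-HM was 0.32 (adjusted p = 0.939) instead of 0.10.

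Among the abundant subunits, Chrna7 and Chrna4 had unadjusted p under 0.05 in the Shank3-HM striatum, with opposite signs, and neither passed the adjusted threshold. Chrna7 had 286, 256, 278, 289.5 and 240 normalized counts in WT, 350, 250, 284, 290 and 247 in Shank3-HT and 299.9, 315, 309, 325 and 354 in Shank3-HM. The Shank3-HM samples were all above the WT samples, and the Shank3-HT samples overlapped with both. The log2 difference of Shank3-HM was 0.25 (SE 0.10, unadjusted p = 0.0191, adjusted p = 0.541). Chrna7 shares 2127 nucleotides with Gm44741, a gene on the same strand that has a row of its own in the table, so that the split of reads between them is uncertain.

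Chrna4 had 360, 395, 425, 421 and 533 normalized counts in WT and 369.7, 382, 321, 251 and 352 in Shank3-HM striatum. The groups overlapped at the upper Shank3-HM and lower WT samples. The highest value, 533, is that of WT replicate 5, the striatal library with the lowest summed spiny projection neuron markers. Its sum was 244147, against 306550 to 330123 in the other WT samples. The log2 difference was -0.35 (SE 0.15, unadjusted p = 0.0333, adjusted p = 0.627), and that of Shank3-HT was -0.11 (adjusted p = 0.918). In the hippocampus, the Shank3-HM difference of Chrna4 was 0.17 (adjusted p = 0.920), and the test of the difference between the striatal and hippocampal effects gave -0.52 (adjusted p = 0.723).

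Chrnb2, the most abundant member, differed from WT by at most 0.06 on the log2 scale in any region. In the striatum, its means were 1341 ± 79.1, 1378 ± 32.2 and 1369 ± 106 in WT, Shank3-HT and Shank3-HM, and the log2 difference of Shank3-HM was 0.03 with 2 SE limits of -0.09 and 0.14. The largest Chrnb2 difference of a mutant from WT was 0.06 in the cortex of Shank3-HM mice (adjusted p = 0.892). Chrnb2 shares 7252 nucleotides with the oppositely oriented gene Adar.

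**Figure D3:**
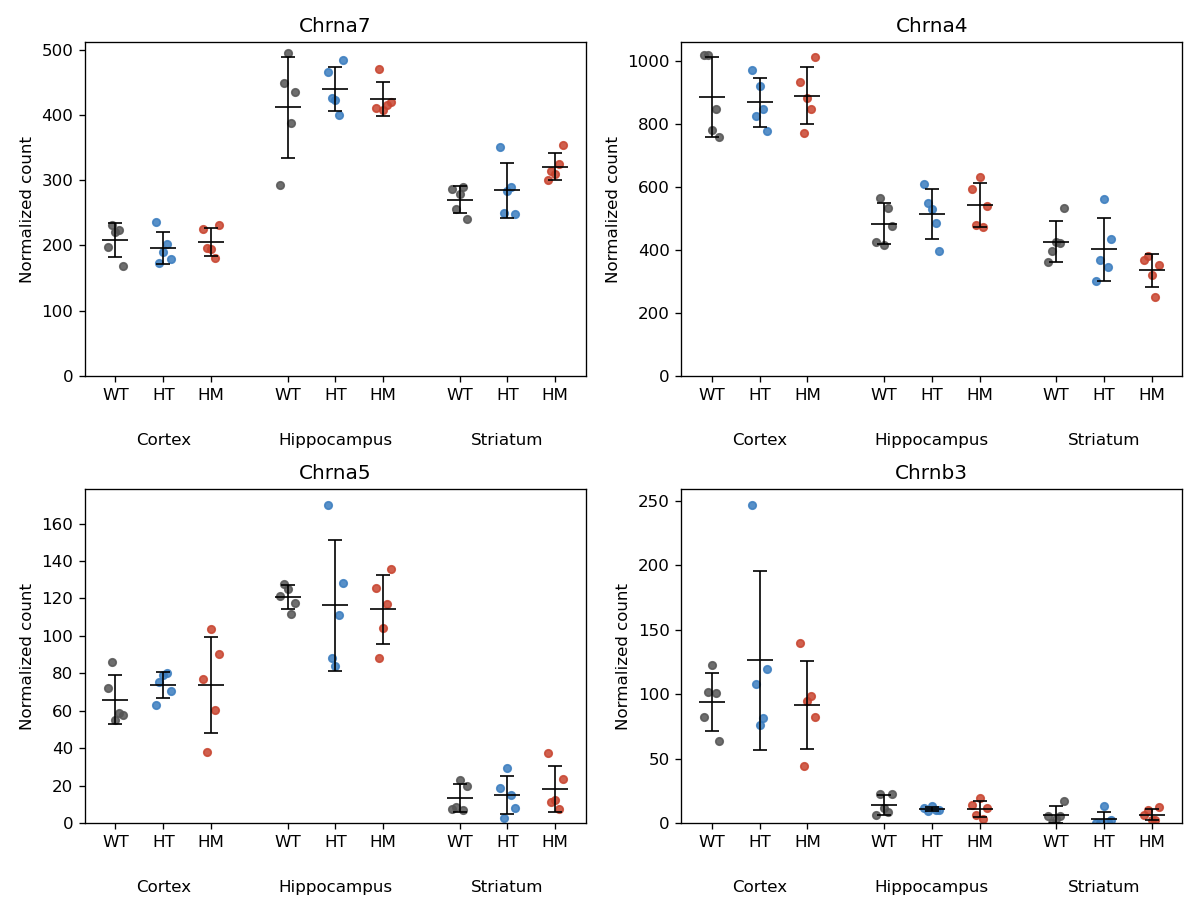
Normalized counts (vertical axis) of Chrna7, Chrna4, Chrna5 and Chrnb3 in the 45 libraries, by region and genotype. Each point is a sample, and the black marks are the mean and SD of 5 samples. In the striatum, the Shank3-HM samples of Chrna7 lie above the WT samples without overlap, and those of the other 3 genes overlap with WT.

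The other members were Chrna2, Chrnb1 and Chrnb3, each of them sparse in at least 1 region. Chrna2 in the cortex had 11.5, 12.7, 6.59, 5.59 and 8.10 normalized counts in WT, 5.67, 11.9, 12.5, 18.3 and 10.3 in Shank3-HT, and 20.5, 45.7, 7.99, 12.3 and 18.3 in Shank3-HM. The highest value is that of Shank3-HM replicate 2, the cortical library with striatal markers, and the ranges of Shank3-HM and WT overlap. Over 15 samples, however, the mean of Chrna2 was 2.73 in the striatum and 13.9 in the cortex. The log2 difference of Shank3-HM was 0.98 (SE 0.40, adjusted p = 0.878) with this library and 0.65 (adjusted p = 0.939) without it. In the striatum, Chrna2 was between 0 and 5.09 in all libraries except the one with choroid plexus markers, Shank3-HT replicate 5, which had 18.1.

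Chrnb1 in the striatum was 15.3 ± 4.01, 23.2 ± 8.41 and 19.7 ± 5.27 in WT, Shank3-HT and Shank3-HM. The genotypes overlapped, and the log2 differences were 0.53 (SE 0.28, adjusted p = 0.719) and 0.35 (adjusted p = 0.864). In the hippocampus, the Chrnb1 differences were 0.38 and 0.21 for Shank3-HT and Shank3-HM, and 0.65 and 0.48 (adjusted p = 0.799 and 0.715) without WT replicate 4. Chrnb3 in the cortex was 94.1 ± 22.5, 126 ± 69.6 and 91.8 ± 34.2, with log2 differences of 0.31 (adjusted p = 1.0) and -0.09 (adjusted p = 0.973). Without cortex Shank3-HM replicate 2, the latter turned to 0.15 (adjusted p = 0.984). The Shank3-HT mean of Chrnb3 includes 246 in replicate 1, against 75.7 to 119.6 in the other samples of that group. In the striatum, Chrnb3 was under the minimum and overlapped between genotypes at means of 6.24 ± 6.64, 3.17 ± 5.50 and 6.49 ± 4.58.

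**Figure D4:**
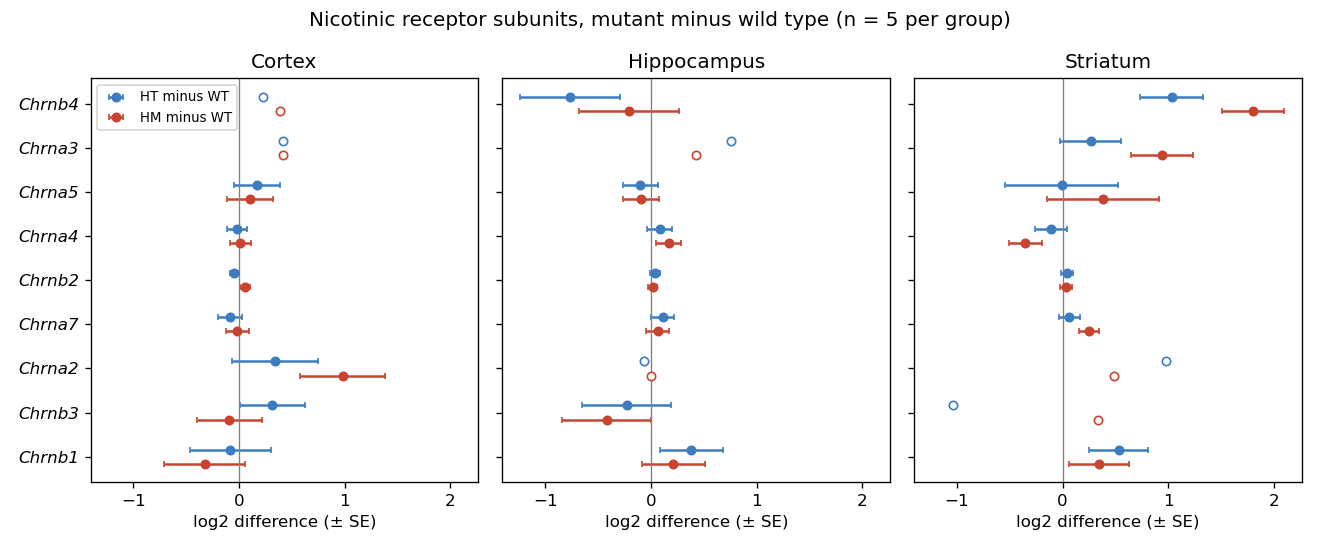
Log2 differences of Shank3-HT (blue) and Shank3-HM (red) from WT for the 9 subunit genes in each region (horizontal axis), with bars of 1 SE. Open points without bars are genes under the minimum of 10, whose differences did not enter the test across genes. Chrnb4 in the striatum, at 1.03 and 1.80, is the value by which the gene was chosen, and the next positive values among the genes tested are 0.98 for Chrna2 in the Shank3-HM cortex and 0.94 for Chrna3 in the Shank3-HM striatum.

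Chrna3 and Chrnb4 in the cortex, Chrna2 and Chrna3 in the hippocampus, and Chrna2 and Chrnb3 in the striatum were under the minimum of 10, which left 7 members to test in the cortex, 7 in the hippocampus and, with Chrnb4 not tested, 6 in the striatum. Of the members tested, none passed the adjusted threshold in any comparison of genotypes. In the cortex and hippocampus, 0 of 7 members tested were called in Shank3-HT and in Shank3-HM by limma, where 0.0% and 0.0121% of all genes were called in the cortex and 0.00603% in each comparison in the hippocampus. Members with an unadjusted p under 0.05 numbered 1 in the cortex, in the Shank3-HM comparison, where 5.49% of all genes had one, and 0 in the hippocampus, against 5.26% (Shank3-HT) and 4.73% (Shank3-HM) of all genes. In the striatum, with Chrnb4 left out, 0 of 6 members tested were called in Shank3-HT and 0 of 6 in Shank3-HM, where 0.00607% and 0.182% of all genes were called. Of these 6 members, 5 had a positive difference and 3 had an unadjusted p under 0.05 in Shank3-HM, against 7.43% of all genes, and the median log2 difference was 0.30 against 0.00072 over all genes. In Shank3-HT, 4 had a positive difference and 0 an unadjusted p under 0.05, against 7.43% of all genes. The median there was 0.05 against -0.0058 over all genes. Chrna3 and Chrna7 were the members whose Shank3-HM samples all exceeded the WT samples, and 1.1% of all genes did so in that direction. Between Shank3-HM and Shank3-HT, 0 members were called in any region, against 0.00606% (cortex), 0.00603% (hippocampus) and 0.14% (striatum) of all genes. By the slope per mutant allele, 0 members were called as well, against 0.0121%, 0.00603% and 0.121% of all genes. The comparisons of both mutants share their WT samples. Differences of the genotype effects between regions were called for 0 of the 5 or 6 members tested in each of 6 comparisons, with lowest adjusted p of 0.723, where 0.0539% of all genes (Shank3-HM effect, striatum against cortex), 0.0718% (striatum against hippocampus) or 0.0% (the other 4 comparisons) were called.

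Genes of proteins that act with the receptors were compared next. Of 14 proteins that assist or modulate nicotinic receptors, 13 were tested in the striatum and 0 were called in either mutant, with 5 of 13 differences positive and 1 unadjusted p under 0.05 in Shank3-HM. Of all genes tested in the striatum, 0.00607% (Shank3-HT) and 0.182% (Shank3-HM) were called, and 7.43% had an unadjusted p under 0.05 in each mutant. The smallest unadjusted p in Shank3-HM was that of Lypd6, which encodes a GPI-anchored modulator of these receptors, at a log2 difference of -0.25 (SE 0.11, adjusted p = 0.627). Lynx1, a prototoxin that binds and dampens nicotinic receptors, had differences of 0.12 and 0.13 in Shank3-HT and Shank3-HM (adjusted p = 0.776 and 0.754). Of the 10 genes of acetylcholine synthesis, transport and breakdown, 0 were called in the striatum, with 9 of 10 differences positive in Shank3-HT and 5 of 10 in Shank3-HM. In each mutant 1 unadjusted p was under 0.05. Slc44a1, a choline transporter, had the smallest p in both, at 0.26 (SE 0.09, adjusted p = 0.632) and 0.20 (adjusted p = 0.648). The lists were likewise at 0 calls in cortex and hippocampus.

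A list of 8 genes linked to the cluster held 4 that lie on its Chrna5 side in the mouse, Psma4, Hykk, Ireb2 and Cib2, and 4 that lie far away on the same chromosome, Adamts7, Morf4l1, Ctsh and Tmed3. None of the 7 tested in the striatum was called by limma, none had an unadjusted p under 0.05, and 2 of 7 differences were positive in Shank3-HM. Over all genes, 0.00607% (Shank3-HT) and 0.182% (Shank3-HM) were called there and 7.43% had an unadjusted p under 0.05. With so few genes in the list, a count of 0 does not set them apart from these shares. Psma4, a proteasome subunit, had a Shank3-HM difference of -0.05 (SE 0.06, adjusted p = 0.926). Ireb2, an iron-responsive RNA-binding protein, had a Shank3-HT difference of -0.04 (SE 0.05, adjusted p = 0.900).

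Markers of cells that could carry these receptors were examined beside the striatal values. The 11 cholinergic neuron markers were all present in the striatum, with sums of 5073 to 6270 in WT, 5264 to 6505 in Shank3-HT and 4907 to 6422 in Shank3-HM, so that the genotypes overlapped. Of the 6 medial habenula markers, 5 were analysed, and their sums were 586, 492, 569, 699 and 1034 in WT, 612 to 1158 in Shank3-HT and 761 to 997 in Shank3-HM. The Shank3-HM sums were above 4 of the 5 WT sums and overlapped with WT through replicate 5. Sums of this list were higher in the other regions, at 2814 to 3101 in the WT cortex and 1718 to 1998 in the WT hippocampus. The list therefore does not single out the habenula in these samples. Of the 5 markers, 4 had positive Shank3-HM differences, 0 were called and 1 had an unadjusted p under 0.05, and the median log2 difference was 0.07. Over all genes, 0.182% were called in this comparison, 7.43% had an unadjusted p under 0.05 and the median was 0.00072. Within this list, Lrrc55, which encodes a BK channel subunit, had a Shank3-HM difference of 0.57 (SE 0.13, adjusted p = 0.106).

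The summed level of the 12 interneuron markers did not overlap between Shank3-HM and WT striatum. The sums were 38314 to 39366 in WT, 35778 to 43229 in Shank3-HT and 43200 to 45860 in Shank3-HM, so that all Shank3-HM samples were above all WT samples. Of the 12 markers, 11 had positive Shank3-HM differences and 1 was called, Lamp5, at 0.53 (SE 0.07, adjusted p = 0.00178), where 0.182% of all genes were called, and 4 of 12 had an unadjusted p under 0.05, against 7.43% of all genes. Gad1, an enzyme of GABA synthesis that spiny projection neurons also express, had a difference of 0.21 (SE 0.05, adjusted p = 0.110). Because Gad1 is in the list, its sum is not particular to interneurons. The summed spiny projection neuron markers overlapped between the genotypes. They were 244147 to 330123 in WT, 256659 to 326888 in Shank3-HT and 289724 to 319436 in Shank3-HM. The 8 oligodendrocyte markers had positive differences in both mutants, with a median of 0.36 in Shank3-HT and 0.21 in Shank3-HM, and with 0 calls by limma where 8 and 0 markers had an unadjusted p under 0.05, against 7.43% of all genes in each mutant. The part of these cells in the Chrnb4 and Chrna3 values was not tested.

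**Figure D5:**
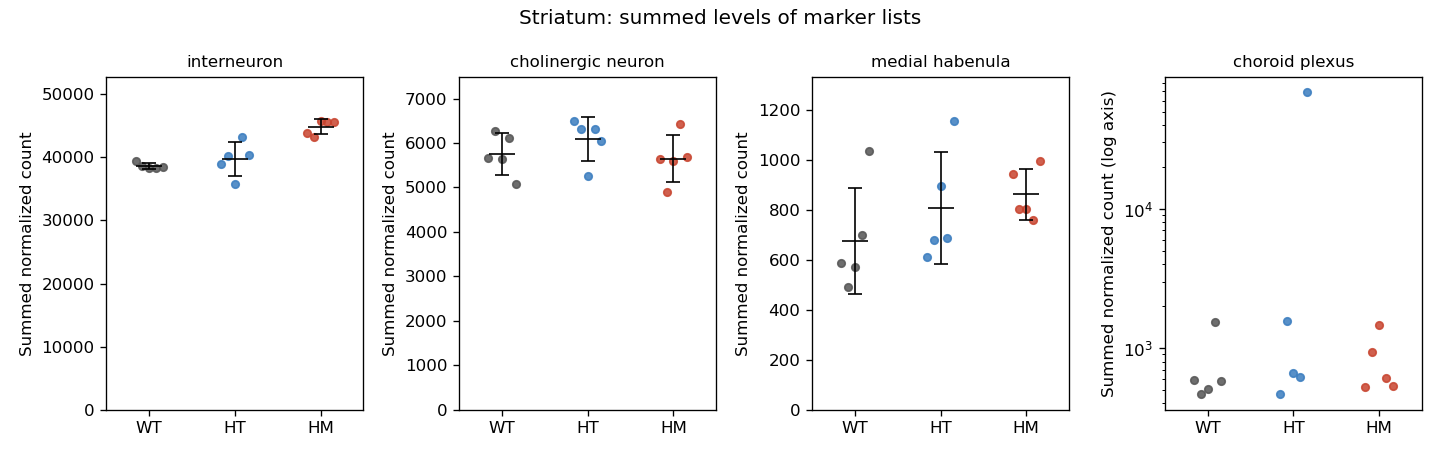
Summed normalized counts of 4 lists of marker genes in the striatum by genotype (vertical axes, logarithmic for choroid plexus). Each point is a sample, and black marks are the mean and SD of 5 samples, left out for choroid plexus. The interneuron sums of Shank3-HM lie above those of WT, the cholinergic sums overlap, the medial habenula sums of Shank3-HM overlap with WT through 1 WT sample at 1034, and 1 Shank3-HT library stands apart in the choroid plexus markers at 68811.

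Genes that varied most like Chrnb4 were looked up among 16482 genes over the 15 striatal samples, by Pearson's r of log2 values. They were Ddit4, a stress-induced inhibitor of mTORC1 signalling, at 0.85, Tagln, an actin-binding protein of smooth muscle, at 0.83, Fam222a and Rilpl2 at 0.82, and Parp3, a poly(ADP-ribose) polymerase, at 0.81. These samples hold the genotype difference by which Chrnb4 was chosen, and part of the likeness is that difference. With each genotype centred on its mean, the r was 0.84 for Fam222a, 0.73 for Rilpl2, 0.67 for Ddit4, 0.66 for Parp3 and 0.46 for Tagln. These genes were picked as the highest of 16482 over the same samples, so that the centred values are no independent check. Among the members, Chrna3 had an r of 0.63, which was 0.18 with genotypes centred, Chrna7 0.50 and -0.03, and Chrna4 -0.57 and -0.32. Chrnb1 had 0.43 and 0.29, Chrnb2 0.30 and 0.32, and Chrna5 0.07 and -0.16.

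Over all 45 samples with the 9 group means removed, the genes most like Chrnb4 were Ltbp3 at 0.63, Col4a4 at 0.62, Slc17a8 and Col4a5 at 0.61 and Vat1l at 0.60, of 16708 genes. Col4a4 and Col4a5 encode chains of type IV collagen, and Slc17a8 the vesicular glutamate transporter of cholinergic interneurons. Chrna3 had an r of 0.09 on this scale. The samples share the libraries with raised choroid plexus markers.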

How the data were processed

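The authors quantified stranded mRNA libraries with Salmon against GRCm38 and normalized gene counts with DESeq2. The submitters' processing notes give Salmon 1.1.0, R 3.6.2 and DESeq2 1.26.0. The deposited signal values are these normalized counts of 18135 genes in 45 samples. No single step per sample recovered whole reads: at best 13.3% to 35.9% of low values lay within 0.05 of a whole multiple, where 10% would by chance, so that count tests were not used. The normalized totals of 26118607 to 29568983 are not sequencing depth, which is unknown.

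Values were transformed as log2(value + 1), so that differences understate changes of low genes. The minimum for testing was a mean of 10 in the samples fitted, and the test was that of limma 3.58.1 in R 4.3.3 (lmFit, eBayes with an intensity trend). Within a region, 15 samples were fitted (16507 genes in the cortex, 16571 in the hippocampus, 16482 in the striatum), and between regions all 45 (16708 genes). The Benjamini-Hochberg adjustment covered every gene tested, at a threshold of 0.05. Chrnb4 was left out of tests that involve the striatum, where its pattern chose it, and a member was tested between regions only where its mean was at least 10 in both, a rule added after values were seen. For members under the minimum, exact permutation tests (two-sided) were run. The scripts were tested on simulated data. Figures and tables were made with pandas 2.3.3, numpy 2.4.6, matplotlib 3.10.9 and scipy 1.17.1 in Python 3.11.15.

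Columns coded KI were matched to the samples labelled knock-out and called Shank3-HM. Transcript lengths and positions are from GENCODE M21. The members and all gene and marker lists were chosen with earlier results of these data known. Named are all members, Shank3, up to 4 genes with the smallest p of each related list and any called, and the 5 genes most like Chrnb4 in each of 2 sample sets. The named marker genes and the motifs were chosen after values or sequences were seen. Alternatives were no intensity trend, pseudocounts of 0.1 and 5, no filter, a mean of at least 100, quantile normalization, a fit of only the 2 groups compared, a block for the sample number, and leaving out each sample.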

Additional observations from a re-analysis of the deposited data

Results flagged for a closer look

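In 81 groups of 5 samples (9 genes in 9 groups), 7 held a sample whose gap to its nearest neighbour exceeded 0.71 of the range of the group, where about 1 in 20 groups does so by chance. Chrna2 was 18.1 in striatum Shank3-HT replicate 5, against 0 to 3.71 in the other samples of the group, and this library held the raised choroid plexus markers. In the Shank3-HM striatum, Chrna2 was 5.09 in replicate 1 against 0.834 to 1.84. Chrna7 was 470 in hippocampus Shank3-HM replicate 2 against 408 to 419. Chrnb1 was 41.6 in hippocampus WT replicate 4, another library with raised choroid plexus markers, against 13.2 to 20.1. Chrnb3 was 246 in cortex Shank3-HT replicate 1 against 75.7 to 119.6, and 12.9 in striatum Shank3-HT replicate 3 against 0 to 1.98. Chrnb4 was 6.04 in cortex Shank3-HT replicate 1 against 1.001 to 2.25.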

How the results depend on the processing

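No member was called in a comparison of genotypes under any alternative. The striatal Chrnb4 differences, whose sign the choice of the gene fixed, are given as a description, at 1.52 to 1.88 (Shank3-HM) and 0.85 to 1.09 (Shank3-HT) on the log2 scale under the settings other than leaving out single samples. Chrna3 in the Shank3-HM striatum ranged from 0.74 to 1.07 when single samples were left out (adjusted p 0.216 to 0.615). With a mean of at least 100, the members called between WT regions were 2 of 3 tested for striatum and cortex (63.5% of all genes), 3 of 3 for hippocampus and cortex (49.9%) and 2 of 3 for striatum and hippocampus (61.0%), where 3 of 5 (59.3%), 5 of 6 (46.6%) and 3 of 5 (56.1%) were called with a mean of at least 10. The other settings gave 3 or 4, 4 or 5, and 3 calls. Chrna5 between WT hippocampus and cortex lost its call in 12 settings (adjusted p 0.0511 to 0.0859), among them no intensity trend, a pseudocount of 0.1, quantile normalization and leaving out any WT sample of these regions but cortex replicate 2. Chrnb2 between WT striatum and cortex gained one without striatum WT replicate 2 or 1 (0.0254 and 0.0491). The cause was not tested. Samples with the same number deviated together weakly or not at all (r of -0.119 to 0.225). Between hippocampus and striatum r was positive in all pairs (0.038 to 0.204), and exceeded 0.1 in 4 (WT), 2 (Shank3-HT) and 2 (Shank3-HM) of 5 pairs. The number was not taken to pair samples, and the tests between regions treat the 45 libraries as separate. A fit with 1 mouse per genotype and number put the correlation within a mouse at 0.121. It called 3, 5 and 3 members between WT regions, as the main fit did. With the replicate block the Chrna3 difference was 0.94 (adjusted p 0.338), and the block changed no call. The depth of the libraries is unknown, which limits statements on Chrna2, Chrna3 and Chrnb4 near the lower end of the values.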
